A study of Mus musculus with 41 samples.

Results

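The Krüppel-like factors (KLFs) are zinc-finger transcription factors, and 9 of their genes were followed here across a study of the RNA-binding protein CAPRIN1 in differentiating mouse cells: Klf2, Klf3, Klf4, Klf5, Klf6, Klf7, Klf9, Klf10 and Klf13. Members were taken by symbol from the count tables, and all 9 were found among 51410 genes. Every member passed the filter on low counts in every comparison, with between 74 (Klf2) and 27676 (Klf5) counts per library. The choice went by gene name, and it was made with earlier results of these data known.

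RNA-seq covered R1 cells, a line of mouse embryonic stem cells (ESCs), as wild type (WT) and as clones 2 and 4 of a Caprin1 knockout (KO). All cells, WT included, had spent 4 days in 1 µM retinoic acid (RA), which drives ESCs to differentiate, in medium without LIF, the cytokine that sustains self-renewal. On the fourth day they received 2 µg/ml α-amanitin, which blocks RNA polymerase II, and were harvested at 0, 2, 4 and 8 h. Each time had 4 WT libraries and 2 of each clone, 32 samples in the labels. Replicate 1 of clone 4 at 0 h has no counts, so clone 4 is 1 library at 0 h, which gives 31 libraries. RNA bound by CAPRIN1 was also sequenced after immunoprecipitation (RIP-seq), from 1 control labelled Caprin1 KO and from WT cells in RA, in nocodazole (10 µM, 8 h), in arsenate (200 µM, 2 h) and in ESC medium, 2 libraries each. From these, only lists of gene symbols were used.

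Each KO line is a single clone, so that a difference from WT can belong to the knockout or to the clone. The labels do not say that replicates were separate cultures, and p-values then measure only the spread between these samples, which may be technical. At 0 and 8 h, WT replicates 1 and 2 were more alike, and 3 and 4 more alike, than libraries across these pairs. Caprin1 RNA itself stood at 106 to 196 CPM (counts per 1 M counts of the library, scaled by TMM) in clone 2, 991 to 1225 in clone 4 and 766 to 1161 in WT. The libraries labelled clone 4 lay above those of WT at 0, 2 and 4 h and below them at 8 h, so that the RNA level shows a loss only in clone 2. What the edit leaves of the RNA is not given in the labels, and clone 4 stands below for the libraries so labelled. Total counts ran from 3.46 M to 31.6 M (mega counts) per library, with a mean of 18.7 ± 8.74 M at 0 h (SD, n = 7) and means of 7.16 M to 8.62 M later.

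Marker lists were summed per library as CPM of the library total. Of 12 markers of extraembryonic endoderm all were detected, at a sum of 15407 to 19208 in WT, 22128 to 28132 in clone 4 and 55925 to 64992 in clone 2, with no overlap between the lines. The 8 ESC markers were all detected as well, at 612 to 835 in WT, 695 to 880.1 in clone 4 and 876 to 1237 in clone 2. Sall4 alone ran from 462.5 to 609.6 CPM in clone 2 against 188.7 to 288.7 in WT. Of these 8 markers, 5 were called higher and 2 lower in clone 2 than in WT at 0 h. At 2 h and at 8 h 3 were called higher and 3 lower, with median log2 differences of 0.03 and -0.11. Fibroblast feeder markers, 10 of 10 detected, summed to 899.9 to 1581 in WT, 615 to 924 in clone 2 and 2635 to 3224 in clone 4. Col1a1 and Col3a1 carried most of the sum in WT, and single markers went the other way in clone 2: Fbln2 was at 148 to 194 CPM against 57.5 to 89.5 in WT, and Thy1 at 14.2 to 20.2 against 5.20 to 10.6. Of these 10 markers, 7 were called higher and 2 lower in clone 2 than in WT at 0 h, with a median log2 difference of 1.09, and in clone 4 8 and 0, with a median of 2.30. The 6 neuroectoderm markers summed to 255 to 414 in WT, 269 to 361 in clone 4 and 59.0 to 64.4 in clone 2, with Neurog2 at 0 in some libraries. The 5 trophoblast markers reached 39.3 to 74.9 in WT, 19.5 to 29.8 in clone 2 and 22.1 to 28.1 in clone 4, and the 5 blood and endothelial markers 19.2 to 35.4, 62.1 to 80.1 and 32.9 to 39.9. Elf5, Ptprc, Tal1 and Lum, defining markers of these lists, were at 0 in some libraries. Sall4, Nanog, Esrrb, Pou5f1, Sox2 and Zfp42 stand both among the ESC markers and in the naive network counted further on. The lines therefore differ in markers of several cell types, and the part of these in each difference below was not tested. Nes carried most of the neuroectoderm sum, and Sox1 ran from 2.42 to 5.94 CPM in clone 2 against 1.10 to 3.29 in WT. Eomes, of the trophoblast list, was at 15.5 to 22.1 in clone 2 against 6.22 to 11.3 in WT. Cdh5 carried most of the blood and endothelial sum in clone 2, at 38.6 to 51.3 CPM against 5.33 to 9.69 in WT. In such bulk samples, fewer cells of a type and less RNA per cell cannot be told apart.

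As background, KLFs bind GC-rich and CACCC sequences through zinc fingers at the carboxyl terminus. Klf2, Klf4 and Klf5 help to hold mouse ESCs in the naive state, Klf4 as a target of LIF and STAT3 signalling, Klf5 also in trophectoderm and Klf2 also in endothelium. Klf6 and Klf7 are activators known from early growth-factor responses and from neurite outgrowth, respectively. Klf3 represses through the corepressor CtBP, while Klf9, Klf10 and Klf13 recruit Sin3 and its deacetylases, and Klf10 was first described as an early target of TGF-β.

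The stretches before the start sites of 4 members are shown because their RNA separated the lines in different ways. Klf4 and Klf9 were higher in both clones than in WT. Klf13 was higher and Klf7 lower in clone 2. Each run holds the 250 bases upstream of a RefSeq start (GRCm38.p6) on the gene's own strand, from 5′ to 3′. Capitals mark CACCC and GGGCGG (the CACCC and GC boxes) on either strand. The Klf7 stretch lies inside the RefSeq span of that gene, 64029448 to 64122345, so that its start is an internal one.
Klf4, chr4:55532476-55532725, minus strand: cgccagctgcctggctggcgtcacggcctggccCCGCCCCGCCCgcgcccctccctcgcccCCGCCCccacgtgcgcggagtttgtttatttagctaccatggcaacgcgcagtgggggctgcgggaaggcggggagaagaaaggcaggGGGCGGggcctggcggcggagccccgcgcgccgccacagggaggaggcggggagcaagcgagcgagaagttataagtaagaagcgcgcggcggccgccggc
Klf9, chr19:23140976-23141225, plus strand: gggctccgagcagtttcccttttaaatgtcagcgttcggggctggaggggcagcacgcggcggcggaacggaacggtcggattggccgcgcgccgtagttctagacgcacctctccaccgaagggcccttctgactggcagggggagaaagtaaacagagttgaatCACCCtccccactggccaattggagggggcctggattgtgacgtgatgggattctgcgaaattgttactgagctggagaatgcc
Klf13, chr7:63938916-63939165, minus strand: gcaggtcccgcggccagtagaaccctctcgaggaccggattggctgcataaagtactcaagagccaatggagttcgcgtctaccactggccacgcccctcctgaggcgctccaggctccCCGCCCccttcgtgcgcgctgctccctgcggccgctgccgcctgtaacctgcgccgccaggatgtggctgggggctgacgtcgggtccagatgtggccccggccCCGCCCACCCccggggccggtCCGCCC
Klf7, chr1:64121390-64121639, minus strand: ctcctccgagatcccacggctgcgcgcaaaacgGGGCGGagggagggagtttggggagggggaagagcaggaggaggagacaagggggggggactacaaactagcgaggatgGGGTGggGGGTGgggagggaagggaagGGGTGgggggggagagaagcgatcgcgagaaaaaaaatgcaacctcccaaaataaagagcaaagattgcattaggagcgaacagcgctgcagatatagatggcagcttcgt

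RefSeq promoter entries were found for 7 of 9 members (not for Klf5 and Klf10). CACCC was present in 5 of the 7 and GGGCGG in 6, against 52% and 32.7% of all 32851 promoters of the same length. GC content ran from 59.2% to 78.4% in these 7, with a median of 52.4% over all promoters, and the part of GC content in these shares was not tested. Klf4 had 4 GGGCGG matches and 0 of CACCC. Klf9 was the reverse, with 0 GGGCGG and 1 CACCC. Klf13 had 3 GGGCGG and 1 CACCC, where its CACCC overlaps a GGGCGG match, and Klf7 had 1 GGGCGG and 3 CACCC. Klf3, the richest, had 6 GGGCGG and 5 CACCC. TTCCNGGAA, letters bound by STAT factors, was in 0 of the 7 and in 0.913% of all promoters. These matches describe letters in a window and show no binding.

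Per length, Klf5 and Klf6 RNA were the most abundant in WT at 0 h. Levels in RPKM (TMM-scaled CPM per kilobase of the gene length that the tables give, on which the order depends) were 35.2 ± 3.61 for Klf5 and 28.3 ± 5.18 for Klf6 (SD, n = 4 for each gene here). Klf9 followed at 20.0 ± 3.50 and Klf4 at 19.4 ± 2.06. Klf2, a naive-state factor like Klf4, stood at 12.6 ± 1.68. Klf13 was at 9.33 ± 0.641, Klf3 at 6.72 ± 0.801 and Klf10 at 6.39 ± 0.317. Klf7 was lowest at 4.12 ± 0.529. Libraries of neighbours in this order overlapped for Klf5 and Klf6, Klf6 and Klf9, Klf9 and Klf4, and Klf3 and Klf10, while the other neighbours were apart. The length given for Klf10, 9475 bases, exceeds its RefSeq span of 9248, and that for Klf3 is 16884. Their places in the order may therefore be too low. Before division by length, Klf10 had a mean of 60.5 CPM and Klf2 of 23.3 CPM.

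**Figure D1:**
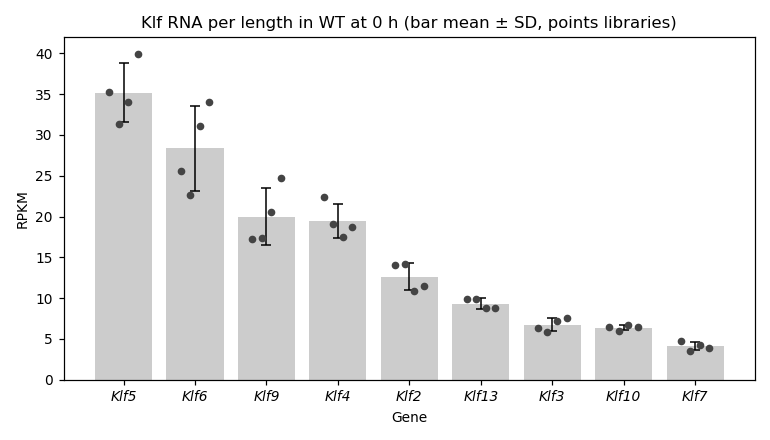
RNA level of each member in WT at 0 h in RPKM (bars are means, error bars SD, points the 4 libraries). Klf5 has the highest mean, 35.2, and Klf7 the lowest, 4.12, and the points of Klf5 and Klf6 overlap.

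The comparison of each clone with WT asks what changed in the lines that carry the knockout, at each time. Klf4, Klf5 and Klf9 were higher in both clones at all 4 times, with the larger log2 difference in clone 2. Klf13 was higher and Klf7 lower in clone 2 at every time. Klf2 was not called in either clone at any time. A gene was called at a false discovery rate (FDR, Benjamini-Hochberg over all genes tested, edgeR's quasi-likelihood test) under 0.05. In clone 2, 7 of 9 members were called at 0 h (5 higher, 2 lower), beside 45.2% of all genes, 22.9% higher and 22.3% lower. At 2 h the count was 8 (5 higher, 3 lower), beside 61.8% of all genes, 31.8% higher and 30% lower. It was 7 (6 higher, 1 lower) at 4 h, beside 61.9% of all genes, 31.1% higher and 30.8% lower, and 7 (4 higher, 3 lower) at 8 h, beside 63.6% of all genes, 31.7% higher and 31.8% lower. Clone 4 at 0 h is 1 library, and every SE and FDR of it at 0 h, against WT or clone 2, takes its spread to be that of the other groups. In clone 4, 4 (4 higher, 0 lower) were called at 0 h, beside 15.9% of all genes, 9.28% higher and 6.6% lower. At 2 h 6 (4 higher, 2 lower) were, beside 41.3% of all genes, 21.7% higher and 19.6% lower. Clone 4 had 8 (5 higher, 3 lower) at 4 h, beside 47.1% of all genes, 24.6% higher and 22.5% lower, and 5 (5 higher, 0 lower) at 8 h, beside 37.5% of all genes, 20.4% higher and 17.1% lower. With shares of all genes this high, the number of members called is no result about the family. The median log2 difference of the 9 members was 0.55 in clone 2 and 0.41 in clone 4 at 0 h, beside 0.00 and -0.02 over all genes. At 8 h it was -0.03 and 0.23.

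**Figure D2:**
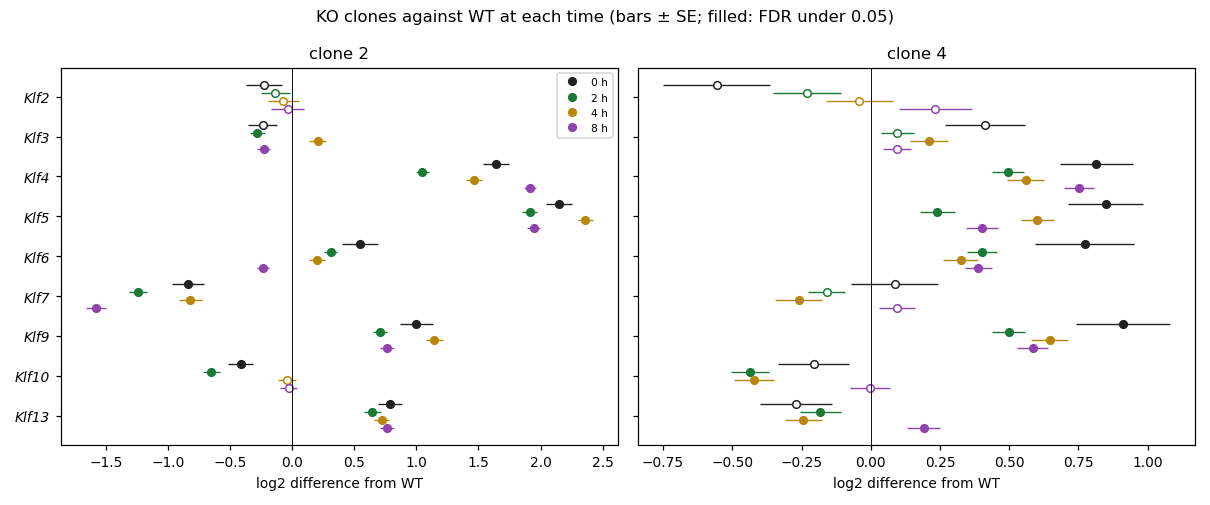
Log2 difference of each member from WT in clone 2 (left) and clone 4 (right) at 0, 2, 4 and 8 h, with bars of ± SE and filled points for FDR under 0.05. Klf4, Klf5 and Klf9 lie right of 0 at every time in both clones, and Klf7 lies left of 0 in clone 2 only, except at 2 and 4 h, where clone 4 is left of 0 too, with a call at 4 h only.

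Klf5, which works in the inner cell mass and trophectoderm, showed the largest difference between a clone and WT in the family. The gene (ENSMUSG00000005148.8) lies on chromosome 14 from 99298691 to 99313412 (GRCm38.p6). At 0 h it stood at 218, 194, 211 and 248 CPM in WT, 902 and 1017 in clone 2 and 391 in clone 4. The lines did not overlap, with clone 2 highest and WT lowest, and this held at each of the 4 times. Later WT values were 403, 361, 430.2 and 363 at 2 h, 360.3, 377, 383 and 382 at 4 h and 163, 184, 194 and 199 at 8 h. Clone 2 had 1383 and 1524, then 1994 and 1921, then 675 and 744 at these times, and clone 4 had 482 and 437, 559.9 and 584 and 239.9 and 239.9. The log2 difference of clone 2 from WT was 2.15 ± 0.11 (edgeR FDR 1.2e-07) at 0 h and 1.91, 2.36 and 1.94 at 2, 4 and 8 h. That of clone 4 was 0.85 ± 0.14 (edgeR FDR 0.0022) at 0 h, and 0.24, 0.60 and 0.40 later, all called. At 2 h the clone 4 call was lost without clone 4 replicate 1.

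Klf4, one of the reprogramming factors and a LIF target (ENSMUSG00000003032.8, chromosome 4, 55527137 to 55532475), went the same way. At 0 h WT libraries held 98.3, 84.0, 77.1 and 82.5 CPM, clone 2 269 and 259 and clone 4 149. Values at 2 h were 142, 137, 136 and 135 in WT, 285 and 280.1 in clone 2 and 193 and 195 in clone 4. At 4 h they were 176, 202, 168 and 191, then 534 and 492.6, then 272 and 269.6, in the same order of lines. At 8 h WT had 76.3, 83.8, 85.7 and 89.8, clone 2 319.9 and 312 and clone 4 141 and 136. Again no libraries of different lines overlapped at any time, with clone 4 between WT and clone 2. Clone 2 exceeded WT by a log2 difference of 1.64 ± 0.10 (edgeR FDR 5.2e-07) at 0 h and by 1.05, 1.47 and 1.92 at 2, 4 and 8 h. Clone 4 exceeded WT by 0.81 ± 0.13 (edgeR FDR 0.0024) at 0 h and by 0.50, 0.56 and 0.75 later, all called.

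Klf2, the third of the naive-state factors, did not follow them. It stood at 25.8, 26.1, 20.2 and 21.1 CPM in WT at 0 h, 18.3 and 21.1 in clone 2 and 15.7 in clone 4. Clone 2 overlapped WT at all 4 times. The clone 4 library at 0 h was below the 4 WT libraries, with a log2 difference of -0.56 ± 0.19 (edgeR FDR 0.073). Of 8 comparisons of a clone with WT, edgeR called Klf2 in 0, and 1 had an unadjusted p under 0.05. DESeq2 called 0 as well. Klf2 is the least abundant member by counts, and its SE at 0 h was 0.14 in clone 2 and 0.19 in clone 4 on the log2 scale.

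**Figure D3:**
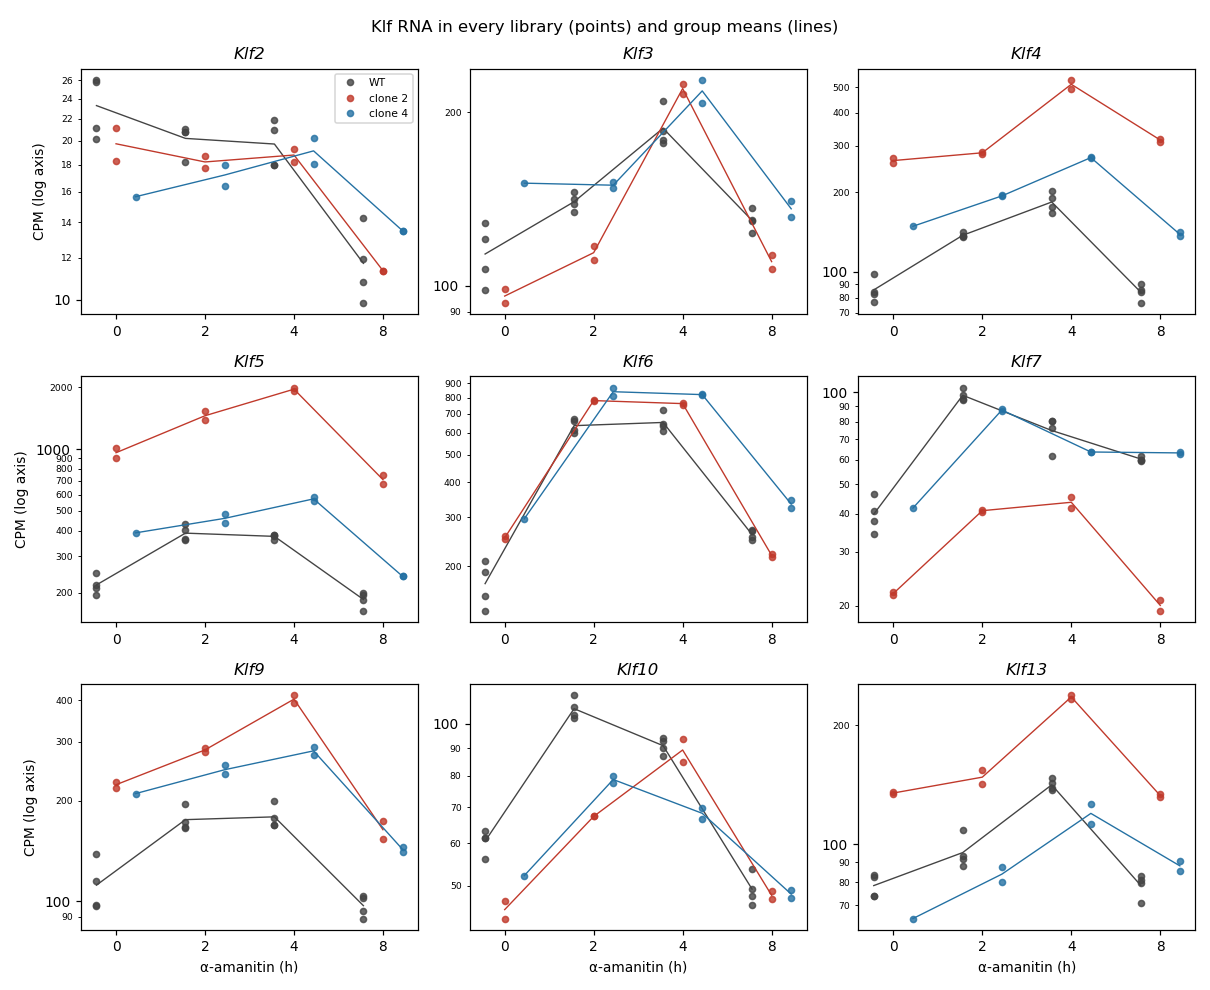
CPM of each member (log axis) by hours of α-amanitin, with a point per library and lines through the group means of WT, clone 2 and clone 4. Klf4 and Klf5 keep the order clone 2, clone 4, WT at all times, Klf7 is low in clone 2 at every time, and Klf2 overlaps between WT and clone 2.

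Klf6, an early-response activator, was higher in both clones at 0, 2 and 4 h, and the clones parted at 8 h. At 0 h it stood at 156, 139, 191 and 209 CPM in WT, 249.8 and 256 in clone 2 and 296 in clone 4, without overlap. At 8 h WT had 269, 267, 248 and 256, clone 2 216 and 222 and clone 4 323 and 345, so that clone 2 was below WT and clone 4 above it. The log2 difference of clone 2 was 0.55 ± 0.14 (edgeR FDR 0.0094) at 0 h and -0.24 ± 0.05 (edgeR FDR 6.2e-05) at 8 h. The calls of clone 2 at 0 and 4 h ended under scaling by library totals alone, and without either clone 2 library. In clone 4 it was 0.77 ± 0.18 (edgeR FDR 0.016) at 0 h and 0.39 ± 0.05 (edgeR FDR 8.7e-09) at 8 h, and all 4 times were called.

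Klf7, known from neurons, was low in clone 2. Its values at 0 h were 46.4, 34.3, 40.8 and 38.0 CPM in WT, 22.2 and 21.7 in clone 2 and 41.7 in clone 4. At 8 h they were 59.5, 62.0, 60.1 and 60.2 in WT, 19.3 and 20.9 in clone 2 and 63.5 and 63.0 in clone 4. Clone 2 lay below every WT and clone 4 library at each of the 4 times. The log2 difference of clone 2 from WT was -0.84 ± 0.13 (edgeR FDR 0.00032) at 0 h and -1.24, -0.82 and -1.58 at 2, 4 and 8 h, all called. In clone 4 only the 4 h value passed, at -0.26 ± 0.08 (edgeR FDR 0.013), and the call was lost without either clone 4 library. The summed neuroectoderm markers were also lowest in clone 2, at 59.0 to 64.4 CPM, and the part of this in the Klf7 difference was not tested.

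Among the repressors, Klf9 was higher in both clones and Klf13 set clone 2 apart. Klf9, which responds to glucocorticoid and thyroid hormone, stood at 96.7, 97.4, 115 and 138 CPM in WT at 0 h, 219 and 228 in clone 2 and 210.0 in clone 4. At 4 h these were 169, 169, 177 and 200.1, then 391.6 and 413, then 274 and 290.1. All clone libraries lay above all WT libraries at every time. The log2 difference was 1.00 ± 0.13 (edgeR FDR 0.00013) in clone 2 and 0.91 ± 0.17 (edgeR FDR 0.0054) in clone 4 at 0 h. Later it was 0.71, 1.15 and 0.76 in clone 2 and 0.50, 0.65 and 0.58 in clone 4, all called.

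Klf13, a regulator of lymphocyte and heart genes, was at 82.7, 83.6, 73.7 and 73.9 CPM in WT, 134 and 136 in clone 2 and 64.7 in clone 4 at 0 h. Clone 2 was above all WT and clone 4 libraries at each time, with log2 differences from WT of 0.79 ± 0.10 (edgeR FDR 5.9e-05) at 0 h and 0.65, 0.72 and 0.76 later, all called. In clone 4 the difference from WT was -0.18 ± 0.07 (edgeR FDR 0.042) at 2 h, -0.24 ± 0.07 (edgeR FDR 0.0038) at 4 h and 0.19 ± 0.06 (edgeR FDR 0.01) at 8 h, lower first and then higher. The 2 h call of clone 4 ended with DESeq2, without the filter on low counts and without clone 4 replicate 1 or 2 or WT replicate 2 or 4. The 4 h call ended without clone 4 replicate 2. The 8 h call ended with DESeq2, under library totals, and without clone 4 replicate 1 or WT replicate 1.

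Klf10 was lower in both clones at 2 h, and in clone 2 also at 0 h, by -0.42 ± 0.10 (edgeR FDR 0.0056), a call lost without either clone 2 library. WT libraries held 104, 102, 113 and 107 CPM, clone 2 67.3 and 67.2 and clone 4 77.4 and 80.1, without overlap between WT and the clones. The log2 difference was -0.65 ± 0.07 (edgeR FDR 3.9e-12) in clone 2 and -0.44 ± 0.07 (edgeR FDR 4.3e-07) in clone 4. At 4 h clone 4 alone was called, at -0.42 ± 0.07 (edgeR FDR 2.1e-05). At 8 h the 3 lines overlapped, at 47.9, 46.1, 53.7 and 49.4 in WT, 47.2 and 48.9 in clone 2 and 49.1 and 47.4 in clone 4.

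Klf3, the CtBP-dependent repressor, differed least of the called members. In clone 2 it was lower at 2 h, by a log2 difference of -0.28 ± 0.06 (edgeR FDR 7.1e-05), higher at 4 h (0.21) and lower at 8 h (-0.23). Its CPM at 2 h was 134, 141, 145 and 139 in WT, 111 and 117 in clone 2 and 151 and 147 in clone 4. The 4 h calls, 0.21 in clone 2 and 0.21 in clone 4, both ended under library totals. They also ended without clone 2 replicate 2 and without clone 4 replicate 1, respectively.

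With both clones pooled as KO, the spread between the clones enters the error. The fit still counts libraries of the same clone as separate KO samples, so that its FDRs may be too low. Without the filter on low counts, the counts given next were 4, 4, 3 and 1 at 0, 2, 4 and 8 h. At 0 h, 5 of 9 members were called (4 higher, 1 lower), beside 26.1% of all genes, 13.9% higher and 12.2% lower. Klf5 was higher by a log2 difference of 1.82 ± 0.28 (edgeR FDR 0.0046), Klf4 by 1.40 ± 0.20 (edgeR FDR 0.0036), Klf9 by 0.97 ± 0.13 (edgeR FDR 0.0035) and Klf6 by 0.62 ± 0.15 (edgeR FDR 0.019). Klf10 was lower, at -0.35 ± 0.10 (edgeR FDR 0.039). The Klf10 call at 0 h was lost without the filter on low counts and without any single library of clone 2 or WT. That of Klf6 was lost under library totals and without clone 2 replicate 2 or WT replicate 1. Counts were 5 (4 higher, 1 lower) at 2 h, beside 31.5% of all genes, 17% higher and 14.6% lower, and 6 (5 higher, 1 lower) at 4 h, beside 36.3% of all genes, 19.4% higher and 16.9% lower. At 8 h the count was 3 (3 higher, 0 lower), beside 17.3% of all genes, 10.3% higher and 7.06% lower. Klf4, Klf5 and Klf9 were the members called at all 4 times, and at 8 h the only ones. Of these, Klf9 had the smallest SE at 0 h, 0.13, beside 0.20 for Klf4 and 0.28 for Klf5. The calls of Klf5 at 2, 4 and 8 h and of Klf4 at 8 h were lost without the filter on low counts, while Klf9 kept its calls. Without WT replicate 1 or without clone 2 replicate 2 the count at 0 h was 3. The 4 h count dropped to 2 when WT replicate 1 was left out and to 3 when WT replicate 3 was, and at 8 h it was 1 without any single WT library. The 8 h calls of Klf4 and Klf5 both ended without any single WT library, and that of Klf5 also without either clone 2 library. At 2 h the Klf5 call ended under library totals and without any single library of clone 2 or WT, and at 4 h it ended without WT replicate 1.

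The clones were also compared with each other. With shares of all genes of up to 58.4%, the number of members called is no result about the family here either. Clone 4 against clone 2 gave 5 (2 higher, 3 lower) of 9 at 0 h, beside 23.9% of all genes, 13.4% higher and 10.5% lower. At 2 h the clones differed in 7 (3 higher, 4 lower), beside 48.7% of all genes, 25% higher and 23.7% lower, and at 4 h in 6 (1 higher, 5 lower), beside 47.6% of all genes, 24.8% higher and 22.9% lower. At 8 h they differed in 7 (3 higher, 4 lower), beside 58.4% of all genes, 30% higher and 28.5% lower. Klf5 was lower in clone 4 than in clone 2 by a log2 difference of -1.30 ± 0.17 (edgeR FDR 0.00026) at 0 h, and by -1.67, -1.76 and -1.54 later. Klf4 differed by -0.83, -0.55, -0.91 and -1.16 over the 4 times and Klf13 by -1.06, -0.83, -0.96 and -0.57, all called. Klf9 was lower in clone 4 too, by between -0.09 and -0.50, and was called at 3 of the 4 times. Its calls at 2 and 8 h ended under library totals. Klf7 was higher in clone 4, by 0.92 ± 0.17 (edgeR FDR 0.0025) at 0 h and 1.67 ± 0.09 (edgeR FDR 8.6e-21) at 8 h. Klf2 was called at 0 of the 4 times by edgeR and by DESeq2, with 0 unadjusted p-values under 0.05. The extraembryonic endoderm sum, 22128 to 28132 CPM in clone 4 and 55925 to 64992 in clone 2, moved with the Klf4 and Klf5 order, and its part was not tested.

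The time course under α-amanitin asks how the share of each RNA in the library changed once the inhibitor was added. Counts give shares of a library, so an RNA that decays more slowly than the rest gains share with no new synthesis. The part of this in the changes below was not tested. Times also lie in separate tables of different depth, so that time and table cannot be told apart. In WT, 8 of 9 members rose by 2 h, beside 27.7% of all genes, 14.1% higher and 13.7% lower, led by Klf6 and Klf7. By 4 h all 9 were called, 8 higher and Klf2 lower, beside 52.2% of all genes, 24.8% higher and 27.4% lower. By 8 h 7 were called, 3 higher and 4 lower, beside 51.1% of all genes, 25.7% higher and 25.4% lower. The median log2 change of the members was 0.71 at 2 h, 0.79 at 4 h and -0.01 at 8 h, beside -0.01, -0.04 and 0.01 over all genes. In most members the share thus went up at 2 and 4 h and was back near its start, or below, at 8 h. The 3 comparisons share the 0 h libraries. The summed ESC markers in WT were 763 to 835 CPM at 0 h and 612 to 706 at 4 h, and the part of this was not tested.

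Klf6 made the largest change. In WT it went from 156, 139, 191 and 209 CPM at 0 h to 597, 612, 672 and 659.6 at 2 h, 606, 644, 635 and 725 at 4 h and 269, 267, 248 and 256 at 8 h. No library at a later time overlapped those at 0 h, where replicates 1 and 2 were below replicates 3 and 4. The log2 change was 1.87 ± 0.08 (edgeR FDR 7.2e-19) at 2 h, 1.91 ± 0.08 (edgeR FDR 9.7e-20) at 4 h and 0.58 ± 0.08 (edgeR FDR 2.9e-07) at 8 h.

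Klf7 had its highest WT mean at 2 h. It went from 46.4, 34.3, 40.8 and 38.0 CPM to 104, 97.6, 94.2 and 95.2 at 2 h, 80.6, 61.7, 76.6 and 80.7 at 4 h and 59.5, 62.0, 60.1 and 60.2 at 8 h, always above the 0 h libraries. Its log2 changes from 0 h were 1.32 ± 0.07 (edgeR FDR 3.5e-17), 0.96 and 0.63, all called. Klf10 was highest at 2 h as well, at 104, 102, 113 and 107 CPM against 61.4, 56.2, 63.1 and 61.4 at 0 h, a log2 change of 0.82 ± 0.06 (edgeR FDR 4.4e-14). Klf10 was below its start at 8 h, by -0.29 ± 0.06 (edgeR FDR 9e-05). The 2 and 4 h groups were not tested against each other.

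Klf4 rose by 0.71 ± 0.06 (edgeR FDR 2e-11) at 2 h and 1.12 ± 0.06 (edgeR FDR 1.6e-17) at 4 h on the log2 scale. At 8 h it overlapped its 0 h values, with 76.3, 83.8, 85.7 and 89.8 against 98.3, 84.0, 77.1 and 82.5 CPM. Klf5 rose by 0.84 and 0.79 and was then lower, by -0.23 ± 0.07 (edgeR FDR 0.0052). Klf9 followed the same course, with 0.64 and 0.67, then -0.21 ± 0.08 (edgeR FDR 0.034), a call lost without WT replicate 3 or 4 of 0 h and replicate 1 or 2 of 8 h. Klf13 rose by 0.28 and 0.86, and Klf3 by 0.30, 0.73 and 0.19, where the 8 h call of Klf3 was lost under library totals and without WT replicate 2 of 0 h or of 8 h.

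Klf2 made the largest drop in share of the 4 members called lower at 8 h. In WT it fell from 25.8, 26.1, 20.2 and 21.1 CPM at 0 h to 9.85, 11.9, 14.3 and 10.8 at 8 h, with no overlap, a log2 change of -0.97 ± 0.11 (edgeR FDR 2e-09). At 4 h the change was -0.24 ± 0.10 (edgeR FDR 0.047), with overlapping libraries, and it was not called with RLE scaling, with DESeq2, or without WT replicate 1 or 2 of 0 h or replicate 3 or 4 of 4 h. At 2 h it was -0.19, which did not pass.

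**Figure D4:**
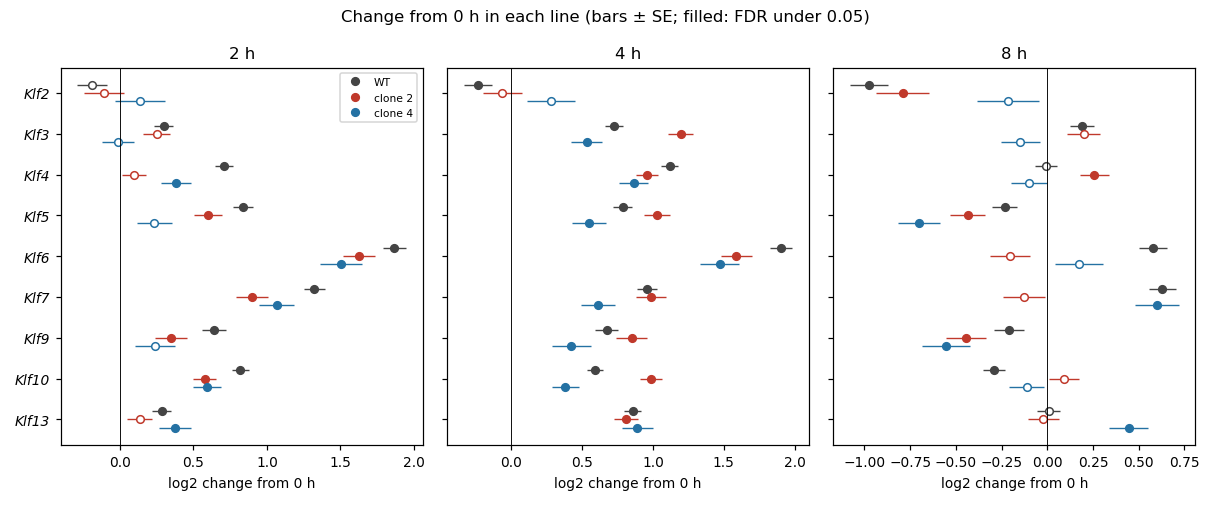
Log2 change of each member from 0 h at 2, 4 and 8 h in WT, clone 2 and clone 4, with bars of ± SE and filled points for FDR under 0.05. Klf6 lies furthest to the right at 2 and 4 h in each line, and Klf2 furthest to the left at 8 h in WT and clone 2.

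In the clones the course was similar in outline. Clone 2 had 5 members called at 2 h (beside 11.8% of all genes, 6.04% higher and 5.81% lower), 8 at 4 h (beside 42.1% of all genes, 20.3% higher and 21.8% lower) and 4 at 8 h (beside 28.4% of all genes, 12.6% higher and 15.8% lower). At 2 and 4 h all of those called were higher, and at 8 h Klf4 was higher (0.26) while Klf2 (-0.79), Klf5 (-0.44) and Klf9 (-0.45) were lower. Without clone 2 replicate 1 at 8 h, 2 of these 4 calls were left, without those of Klf4 and Klf9, and Klf4 was also lost without replicate 2 at 0 h. Clone 4 had 5 at 2 h (beside 6.32% of all genes, 3.57% higher and 2.75% lower), 8 at 4 h (beside 23.1% of all genes, 12% higher and 11.2% lower) and 4 at 8 h (beside 19.5% of all genes, 8.57% higher and 10.9% lower), the last being Klf7 (0.60) and Klf13 (0.44) higher and Klf5 (-0.70) and Klf9 (-0.55) lower. The 2 h count of clone 4 was 3 without either of its 2 h libraries. Every clone 4 value here rests on 1 library at 0 h, whose spread was taken to be like that of the other groups. Klf6 rose at 2 h by 1.63 ± 0.11 (edgeR FDR 9.1e-13) in clone 2 and 1.505 ± 0.14 (edgeR FDR 3.4e-09) in clone 4.

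Whether a clone changed differently from WT was tested directly, as the difference of the log2 changes. For clone 2, 1 member was called at 2 h (beside 1.16% of all genes, 0.259% higher and 0.902% lower), 2 at 4 h (beside 6.53% of all genes, 3.38% higher and 3.15% lower) and 3 at 8 h (beside 7.42% of all genes, 3% higher and 4.42% lower). Klf4 rose less in clone 2 by 2 h, with 0.10 against 0.71 in WT, a difference of -0.61 ± 0.10 (edgeR FDR 0.00022). By 4 h Klf3 rose more, 1.20 against 0.73, a difference of 0.47 ± 0.11 (edgeR FDR 0.0048). So did Klf10, 0.99 against 0.59, a difference of 0.40 ± 0.10 (edgeR FDR 0.0081). Neither 4 h call was made with only the compared groups in the fit, or without clone 2 replicate 1 at 0 h, and 1 was left without clone 2 replicate 2 at 4 h. By 8 h Klf6 was -0.21 in clone 2 and 0.58 in WT, a difference of -0.78 ± 0.13 (edgeR FDR 0.00021). Klf7 was -0.13 against 0.63, a difference of -0.76 ± 0.13 (edgeR FDR 0.00024). Klf10 was -0.29 in WT and not called in clone 2, a difference of 0.38 ± 0.10 (edgeR FDR 0.013), lost without clone 2 replicate 1 at 0 h or replicate 2 at 8 h. The 2 h count for clone 2 was 2 without WT replicate 1 or 4 at 0 h.

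For clone 4, 1 member was called at 2 h (beside 0.517% of all genes, 0.0946% higher and 0.423% lower), 0 at 4 h (beside 0.618% of all genes, 0.114% higher and 0.505% lower) and 3 at 8 h (beside 4.09% of all genes, 1.81% higher and 2.28% lower). At 4 h, 4 members had an unadjusted p under 0.05 and DESeq2 also called 0. Klf5 rose less by 2 h, 0.23 against 0.84 in WT, a difference of -0.60 ± 0.13 (edgeR FDR 0.024). By 8 h Klf5 had fallen further, with a difference of -0.47 ± 0.13 (edgeR FDR 0.042). Klf13 was 0.44 in clone 4, a difference of 0.44 ± 0.12 (edgeR FDR 0.042). Klf2 was -0.21 in clone 4 and -0.97 in WT, a difference of 0.76 ± 0.20 (edgeR FDR 0.032). Of the 8 h calls, 0 were made without either clone 4 library at 8 h, and 6 without WT replicate 4 at 0 h. A single call was left, 1 of 3, without WT replicate 2 at 0 h or WT replicate 1, 3 or 4 at 8 h. Without WT replicate 4 at 0 h the 2 h count was 2 and the 4 h count 1. With only the compared groups in the fit, 0 members were called at 2 and at 8 h, and under library totals 0 at 2 h. The 2 h call was lost without clone 4 replicate 2 or WT replicate 3 at 2 h.

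Over the 31 libraries, Klf4, Klf5 and Klf9 varied most alike, followed by Klf13 with Klf4 and Klf5. These correlations of log2 CPM describe points that share lines, times and tables, and they carry no test. Pearson's r was 0.931 for Klf4 and Klf5, 0.891 for Klf5 and Klf9, 0.883 for Klf4 and Klf9 and 0.859 for Klf4 and Klf13. Klf6 went with Klf9 (0.741) and Klf10 (0.732), both above Klf9 with Klf13 (0.703), and Klf7 with Klf10 (0.663). The lowest values were those of Klf7 with Klf5 (-0.36) and with Klf4 (-0.31).

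**Figure D5:**
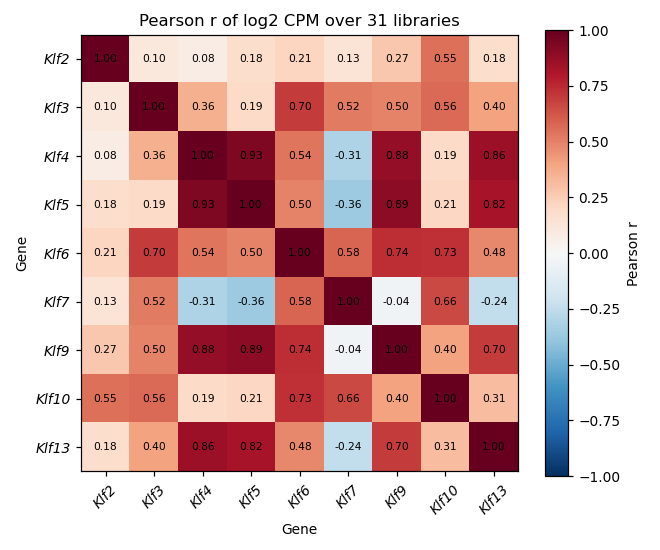
Pearson's r of log2 CPM over 31 libraries for each pair of members, on a colour scale from -1 (blue) to 1 (red). Pairs of Klf4, Klf5, Klf9 and Klf13 run from 0.703 for Klf9 and Klf13 to 0.931 for Klf4 and Klf5, and Klf6 with Klf9 is at 0.741.

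The genes most like each member were sought by the same r among 10697 genes with a mean of at least 5 CPM, and 3 were kept per member. Klf5 was closest to Flrt3 (0.983), Foxq1 (0.976) and Sec24d (0.968). Sec24d, a coat protein of secretory vesicles, was also closest to Klf4 (0.976), followed by the stress kinase gene Eif2ak3 (0.964) and AA986860 (0.955). Klf9 was closest to Nrg1 (0.959), Mphosph6 (0.953) and Bag5 (0.946). Klf6 was closest to Nr1d2 (0.957), Tsc22d2 (0.947) and Ypel5 (0.944). Klf7 went with Trib1 (0.944), the endothelin gene Edn1 (0.939) and Dusp6 (0.934), a phosphatase of ERK. Klf3 went with Fam133b (0.949), Chd1 (0.949) and Mapk1ip1l (0.944), and Klf13 with Ubn1 (0.944), Foxo1 (0.937) and Med4 (0.931). Klf10 and Klf2 had the weakest leaders, Asxl1 (0.926), Ubald1 (0.905) and Csrnp1 (0.903) for Klf10 and Stra8 (0.916), Alpl (0.912) and Akap8l (0.909) for Klf2. By Spearman's rank correlation 12 of these 27 genes were again among the 3 closest.

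The RIP-seq lists name genes from the authors' comparisons "CNT vs RA" (2170 symbols) and "2I vs RA" (2502 symbols), with no direction, value or threshold. The only library titled control is the Caprin1 KO, and that CNT stands for it is not stated in the labels. No library title holds 2I, so that the titles do not give which libraries stand behind the second list. The first holds Klf4, Klf6, Klf9 and Klf13, and the second Klf3, Klf5, Klf10 and Klf13. Klf13 is in both, and Klf2 and Klf7 are in neither. Thus 4 of 9 members are in each list (44.4%). Of 13877 genes with a mean of at least 1 CPM in the RNA-seq, 14.8% are in the first list, 16.8% in the second and 9.14% in both. Klf4 and Klf5 are in different lists. Of the other 17 KLF and Sp genes, the first list holds Sp1 and Sp8 and the second Sp1 and Klf8 (11.8% in each). For 20 KLF inputs and cofactors, counted further on, the shares were 40% and 45%. For 16 genes of the naive network they were 12.5% and 50%. A share near that of the members is thus not particular to them, and the 13877 genes were not matched to the members in RNA level.

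The rest of the family and the related Sp factors, 17 genes, were taken as a list. In clone 2, 4 of 15 tested exceeded WT at 0 h and 4 lay below it, beside 22.9% higher and 22.3% lower of all genes, with a median log2 difference of 0.19 beside 0.00 over all genes. Klf8, a repressor through CtBP, was the most raised, at 172 ± 4.64 CPM (SD, n = 2) against 46.0 ± 12.5 CPM (SD, n = 4) in WT and 79.4 CPM (n = 1) in clone 4. Its log2 difference in clone 2 was 1.90 ± 0.19 (edgeR FDR 1.4e-05), and it was also called in the pooled clones at all 4 times. Klf12, a repressor of the same kind, was lower in clone 2, at 4.21 ± 0.0476 CPM (SD, n = 2) against 14.3 ± 1.67 CPM (SD, n = 4), a log2 difference of -1.73 ± 0.15 (edgeR FDR 5.6e-06). Sp5, a Wnt target, was near 0 in clone 2, with 2 and 3 counts at 0 h, and at 13.7 ± 6.06 CPM (SD, n = 4) in WT. In clone 4 Sp5 was lower than in WT at 2 h by -1.23 ± 0.17 (edgeR FDR 4.4e-06) and at 4 h by -1.22 ± 0.13 (edgeR FDR 5.9e-09). Over time in WT, 8 of 14 rose by 2 h and 1 fell, beside 14.1% and 13.7% of all genes. By 4 h 8 rose and 4 fell (24.8% and 27.4% of all genes), and at 8 h 0 were higher and 5 lower (25.7% and 25.4%).

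A list of 20 genes holds signals that act on KLFs (LIF receptor, JAK and STAT3, the ERK5 and MEF2 arm), ligases that degrade them and cofactors they recruit. In clone 2, 5 of 20 were higher and 6 lower at 0 h, near the 22.9% and 22.3% of all genes. In clone 4 these were 3 and 1, beside 9.28% and 6.6% of all genes. The LIF receptor gene Lifr was higher in both, by 0.85 ± 0.12 (edgeR FDR 0.00017) in clone 2 and 0.90 ± 0.15 (edgeR FDR 0.0028) in clone 4, at 329 ± 43.9 CPM (SD, n = 4) in WT. The corepressor gene Sin3b was lower in the pooled clones at all 4 times, by -0.49 ± 0.11 (edgeR FDR 0.017) at 0 h. Socs3, the feedback inhibitor of LIF signalling, fell in WT by -1.25 ± 0.10 (edgeR FDR 1.3e-12) at 2 h, while Klf4 rose. The list's median log2 difference at 0 h was -0.0004 in clone 2, 0.12 in clone 4 and -0.04 in the pooled clones, beside 0.0006, -0.02 and -0.0016 over all genes.

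The naive pluripotency network without its KLFs, 16 genes, was also counted. At 0 h clone 2 had 8 of them raised against WT and 3 lowered, beside 22.9% and 22.3% of all genes, with a median log2 difference of 0.36. In clone 4 3 were higher and 13 not called, beside 9.28% of all genes higher, with a median of 0.36. Sall4 was higher in both, at 618 ± 6.40 CPM (SD, n = 2) in clone 2 and 336 CPM (n = 1) in clone 4 against 252 ± 17.1 CPM (SD, n = 4) in WT. Its log2 difference was 1.30 ± 0.09 (edgeR FDR 1.3e-06) in clone 2 and 0.42 ± 0.12 (edgeR FDR 0.039) in clone 4. Nr0b1 was lower in clone 2 by -0.65 ± 0.18 (edgeR FDR 0.012), and Dppa4 by -0.50 ± 0.11 (edgeR FDR 0.0038). In WT under α-amanitin, at 4 h 2 rose and 8 fell, beside 24.8% and 27.4% of all genes, with a median of -0.19, while 8 of the 9 KLF members rose.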

How the data were processed

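Mouse RNA was measured by RNA-seq (KAPA stranded mRNA kit, per the labels' protocols) in 31 libraries, and by RIP-seq (QuantSeq 3′ kit). The deposited RNA-seq tables, 1 per time, hold the authors' raw counts per gene, per the file headers, and a gene length. Of 51520 lines, 110 repeated an identifier with the same counts and were dropped. The deposited RIP-seq files used are another kind: the authors' symbol lists, with no values. The tools in the submitters' processing notes are STAR 2.4.0.1, TopHat, Cufflinks, Cuffdiff, DESeq2 and FastQC 0.11.9, and the builds mm10 and GRCm38, and which of them made which file is not stated. The counter, annotation and strand setting are details not given in the sources used here. Every pair of replicates differed by more than counting noise: chi-square per gene ran from 1.62 to 43.3 over 31 pairs. In WT at 0 h it was 3.64 for replicates 1 and 2 and 2.91 for 3 and 4. Across these pairs it was 18.7 to 43.3. WT at 8 h split the same way, with 1.93 and 2.34 within the pairs and 6.88 to 10.8 across them. SDs and tests took the WT libraries as 4 separate samples, and the source of the split was not tested.

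Tests used edgeR 4.0.16 in R 4.3.3 (TMM, filterByExpr, robust quasi-likelihood F test), per time for KO against WT and for 3 groups (each clone and WT), and over 12 groups for time. The scripts were tested on simulated data. A call is FDR under 0.05. SE is the log2 difference divided by the square root of F. Alternatives were RLE scaling, library totals, no filter, DESeq2 1.42.0, a replicate block, only the groups compared, and each library left out. Depth was 3.46 M to 31.6 M counts per library.

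Members, lists and tests were chosen with earlier results of these data known. Named are all 9 members, Caprin1, the 3 genes most like each member, and up to 2 genes per list and direction with the largest called difference at a mean of at least 1 CPM. Promoters are RefSeq entries for GRCm38.p6, and positions are on that build.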

Additional observations from a re-analysis of the deposited data

Results flagged for a closer look

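Of 36 groups of 4 WT libraries (9 members at 4 times), 1 held a library far from the rest: Klf2 at 2 h was lowest in replicate 2, at 18.2 CPM, with the others at 20.8, 20.8 and 21.0. Chance alone marks about 1 group in 20.

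The other results listed are members whose log2 change from 0 h differed between a clone and WT by the edgeR test of the difference. In clone 2 these were Klf4 at 2 h (-0.61), Klf3 (0.47) and Klf10 (0.40) at 4 h, and Klf6 (-0.78), Klf7 (-0.76) and Klf10 (0.38) at 8 h. In clone 4 they were Klf5 at 2 h (-0.60), and Klf5 (-0.47), Klf13 (0.44) and Klf2 (0.76) at 8 h, all of which rest on the only clone 4 library at 0 h.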

How the results depend on the processing

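Of 279 member values (9 members in 31 comparisons), 164 were called. DESeq2 kept 159 of these calls, RLE scaling 163, library totals 147, no filter on low counts 150 and a replicate block 141. Fits of only the groups compared kept 58 of 68, and leaving out libraries in turn kept 834 of 947. None of the called values changed direction under these settings.

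The replicate numbers are not known to pair samples: same-numbered WT libraries at different times correlated over 0.1 in 6 of 24 pairs, and clone 2 and WT within a time in 2 of 8. Clone 2 across times was positive in all 12 pairs (0.0177 to 0.174, 6 over 0.1), as were clones 2 and 4 within a time in all 6 (0.0226 to 0.12, 2 over 0.1), while clone 4 across times had 0 of 6 over 0.1. Values were centred on the group mean, which leaves 2 libraries of a group equal and opposite. Each correlation between clone groups is thus counted 2 times, and other-numbered pairs mirror it, at -0.174 to -0.0177 in clone 2 across times. With the replicate block, the members called for KO against WT were 0 at 0, 2, 4 and 8 h, and for clone 4 against WT at 0 h 7. Without the filter they were 3 at 4 h and 1 at 8 h for KO against WT, 3 for clone 4 at 2 h against 0 h, and 1 for the difference of the 4 h change in clone 4. With only the groups compared, clone 2 at 2 h against 0 h gave 8, and the differences of change gave 0 for clone 2 at 4 h and 0 for clone 4 at 2 and 8 h. Under library totals the 2 h difference of clone 4 gave 0. Library totals shifted the median log2 of all genes by -0.18 to 0.09, and the share of calls that were higher in clone 2 at 4 h went from 50.2% to 33.7%. On that scale Klf13 stood at 10.1 RPKM and Klf10 at 6.93 in WT at 0 h, with the order of levels unchanged. Spearman's correlation kept 12 of 27 like genes.

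Leaving out libraries in turn, members called for KO against WT ranged from 3 to 7 at 0 h, 2 to 5 at 4 h and 1 to 4 at 8 h. Clone 2 at 8 h against 0 h ranged from 2 to 4 and clone 4 at 2 h against 0 h from 3 to 3. The differences of change ranged from 1 to 2 and 0 to 3 for clone 2 at 2 and 4 h, and from 0 to 2, 0 to 1 and 0 to 6 for clone 4 at 2, 4 and 8 h. Uncalled values were followed only from a log2 size of 0.1 on, which with the calls gave 241 of 279 values. Of the uncalled values followed, 2 changed sign, both for KO against WT at 8 h. Klf2 was -0.0032 under library totals, and Klf6 ranged from -0.0184 (without clone 4 replicate 2) to 0.22. Comparisons of clone 4 at 0 h without its only library could not be fitted. The cause of these changes was not tested. Klf2 had the fewest counts, 74 to 630 per library.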
